A study of Homo sapiens with 4 samples.

Results

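The genes studied here encode carriers that move glucose, amino acids and monocarboxylates such as lactate across cell membranes. They belong to 6 solute carrier (SLC) families, SLC1, SLC2, SLC3, SLC7, SLC16 and SLC38. A gene was taken as a member when a row of the array carried its symbol as the only one, and of several rows of 1 gene the row with the highest mean signal was kept. This gave 57 genes of the 33616 genes measured, 7 in SLC1, 14 in SLC2, 2 in SLC3, 13 in SLC7, 9 in SLC16 and 12 in SLC38. The lactate carriers SLC16A1 and SLC16A3 and the genes SLC16A6 and SLC16A11 were not analysed here.

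SAS cells, a line of human tongue squamous carcinoma, were measured on 4 Clariom D arrays, which give 1 log2 signal for each transcript cluster. There were 2 arrays of control cells, which the labels call scrambled control, and 2 of cells that stably overexpressed full-length C6orf141 from the pLVX-IRES-Neo vector after G418 selection. What the control cells carried, and whether they went through the same selection, is not given in the sources. The sources do not say whether the arrays of a group stand for separate cultures, and p-values may thus reflect technical spread alone. In such bulk RNA, fewer cells of a kind and less RNA per cell cannot be told apart. C6orf141 itself had log2 signals of 8.57 and 7.92 in control cells and 11.36 and 12.04 under overexpression, so its groups were widely apart in the labelled direction. The array medians lay between 4.71 and 4.77, and having 2 arrays a group limits the precision. Of the epithelial and squamous markers, 6 of 6 measured were above the background level described below, CDH1, KRT5, SFN, DSG3, EPCAM and KRT14. KRT14 had a mean of 7.29, below the negative control level that is also described there. For other cell types 2 of 4 leukocyte, 1 of 3 fibroblast and 0 of 3 endothelial markers were, among them CD68 with a mean of 10.65, CD3E with 5.87 and COL1A1 with 9.09. The leukocyte markers PTPRC and ITGAM, the fibroblast markers DCN and LUM and the endothelial markers PECAM1, CDH5 and VWF were not above it. The part of other cells in the results below was not tested.

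Cells take up glucose by facilitated diffusion through the SLC2 proteins, also called GLUTs. SLC7 light chains such as SLC7A5 and SLC7A11 reach the plasma membrane only when bound to the heavy chain SLC3A2, and they exchange one amino acid for another. SLC1A5 and the SLC38 carriers bring in glutamine and other small neutral amino acids, which can then serve as exchange substrates. The SLC16 family includes the proton-coupled carriers that let lactate leave glycolytic cells. Squamous carcinomas are known for high expression of SLC2A1, SLC7A5 and SLC3A2.

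The first question was which members of each family SAS cells express. In the absence of detection calls, a background level was set at the 95th percentile of the mean signals of 400 olfactory receptor genes, since epithelial cells rarely express them. It lay at a log2 signal of 5.81. A stricter level came from the 612 negative control rows of the arrays, whose 95th percentile reached 7.72. Of the 57 transporter genes 34 were above the background level, 59.6% against 48.2% of all genes measured, and 25 of them were also above the negative control level. The other 9 of the 34 may still lie within the range of the control rows. SLC2A4 was the member just above the background level, with a mean of 5.84, and SLC1A6 the one just below it, with 5.60. Signals of different genes come from different probes, so the values below show which genes were detected and do not rank the genes by abundance.

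**Figure D1:**
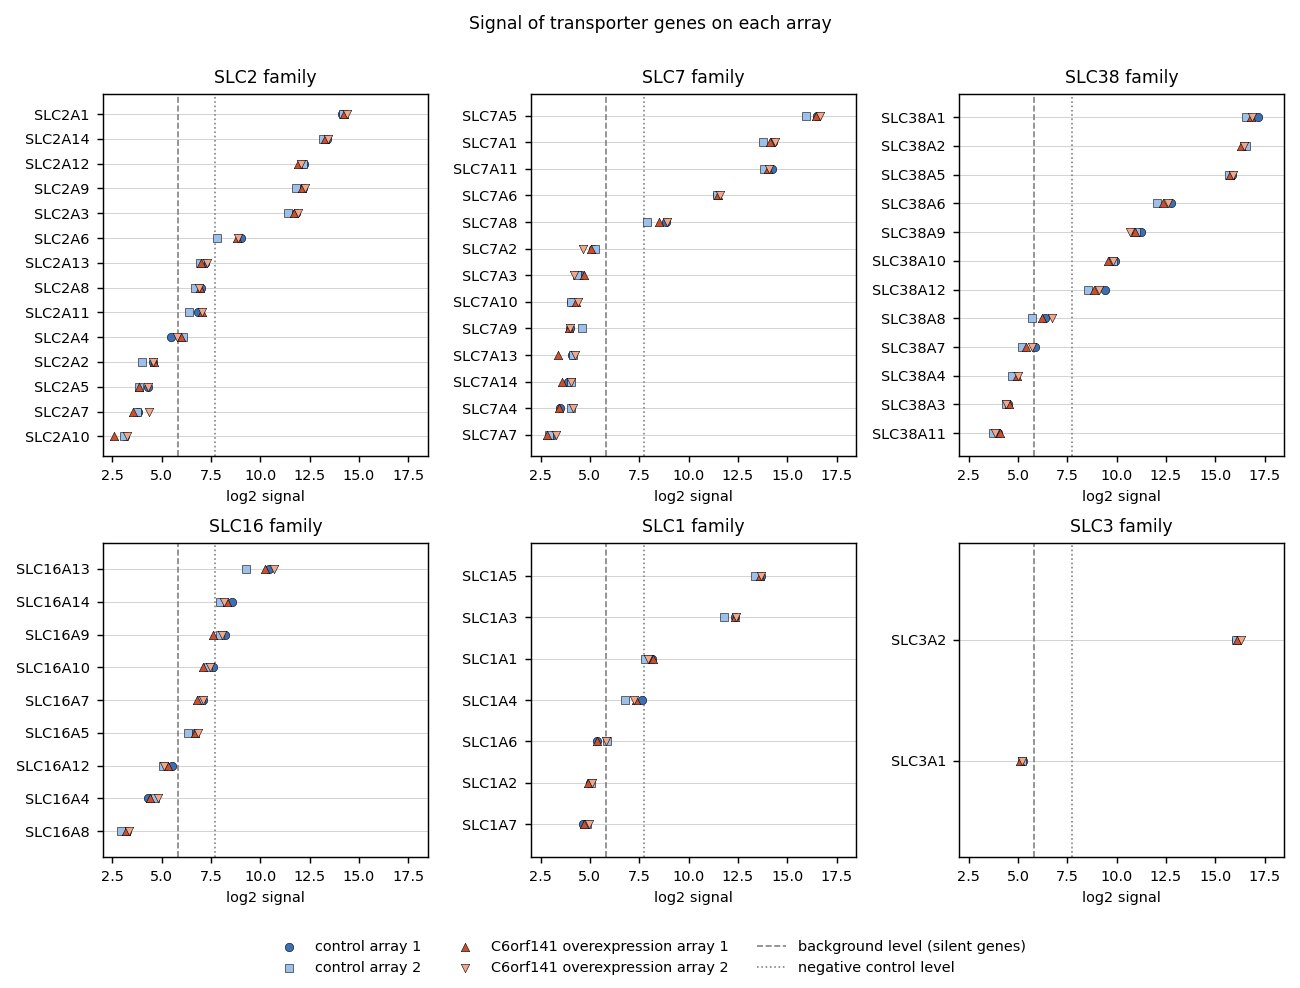
The log2 signal (x axis) of the 57 transporter genes (y axis) is plotted by family, with 1 symbol for each of the 4 arrays. The dashed line is the background level of 5.81 and the dotted line the negative control level of 7.72, and 34 genes have a mean to the right of the dashed line, while the 4 symbols of a gene mostly lie close together.

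Detected and undetected members were also compared by their upstream sequence, which the choice of members did not use. RefSeq promoter windows (build GRCh38.p14) were matched by symbol for 44 of the 57 genes, and the 250 bases before the start of each gene were used. Where a gene had several windows, the first one listed was taken. The 4 below are shown because they belong to a detected and an undetected class I glucose carrier and to both partners of the SLC7A5 and SLC3A2 complex, with each CG dinucleotide in capitals.
SLC2A1, upstream of the gene at chr1:42958869-42959118, minus strand: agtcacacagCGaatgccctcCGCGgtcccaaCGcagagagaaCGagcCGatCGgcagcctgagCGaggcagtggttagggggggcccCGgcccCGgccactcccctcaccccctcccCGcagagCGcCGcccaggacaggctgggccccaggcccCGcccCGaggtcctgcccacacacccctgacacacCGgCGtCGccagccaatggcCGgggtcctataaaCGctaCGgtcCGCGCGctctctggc
SLC2A2, upstream of the gene at chr3:171026721-171026970, minus strand: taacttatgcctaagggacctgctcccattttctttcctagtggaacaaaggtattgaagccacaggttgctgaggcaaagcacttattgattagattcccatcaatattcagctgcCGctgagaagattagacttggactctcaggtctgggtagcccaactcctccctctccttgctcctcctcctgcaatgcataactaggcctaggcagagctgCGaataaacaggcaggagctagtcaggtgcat
SLC7A5, upstream of the gene at chr16:87869508-87869757, minus strand: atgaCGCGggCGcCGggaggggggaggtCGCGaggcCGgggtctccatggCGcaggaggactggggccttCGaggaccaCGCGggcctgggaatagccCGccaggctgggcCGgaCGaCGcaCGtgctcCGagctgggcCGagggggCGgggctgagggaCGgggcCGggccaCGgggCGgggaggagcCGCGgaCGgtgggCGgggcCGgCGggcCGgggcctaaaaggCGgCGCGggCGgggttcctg
SLC3A2, upstream of the gene at chr11:62881449-62881698, plus strand: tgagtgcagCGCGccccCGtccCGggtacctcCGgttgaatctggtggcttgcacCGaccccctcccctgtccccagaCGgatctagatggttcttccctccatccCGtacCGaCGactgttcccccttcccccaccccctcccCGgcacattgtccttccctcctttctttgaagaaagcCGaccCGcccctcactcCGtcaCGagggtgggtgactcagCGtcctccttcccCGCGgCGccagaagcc

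The windows of SLC2A1, SLC7A5 and SLC3A2 held 24, 34 and 19 CG dinucleotides, whereas the window of SLC2A2, the glucose carrier of liver and pancreatic islets, held 2. Their GC content was 72.4%, 79.6% and 65.6%, against 48.8% for SLC2A2. Over the 29 detected transporter genes with a window the median was 21 CG dinucleotides, with a range from 1 to 43. Over the 15 genes not above the background level it was 7, with a range from 2 to 34. The 9492 and 6982 genes measured that had a window had medians of 21 and 6 in the same 2 classes, so the transporter genes lay close to genes in general. The ranges of the classes overlapped widely. SLC16A7 and SLC1A3 were above the background level with 1 CG dinucleotide each, and SLC16A12, at a mean signal of 5.25, was not, with 34. SLC16A7 and SLC1A3 had 2 and 3 windows, of which only the first was counted. SLC16A7 was also below the negative control level.

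**Figure D2:**
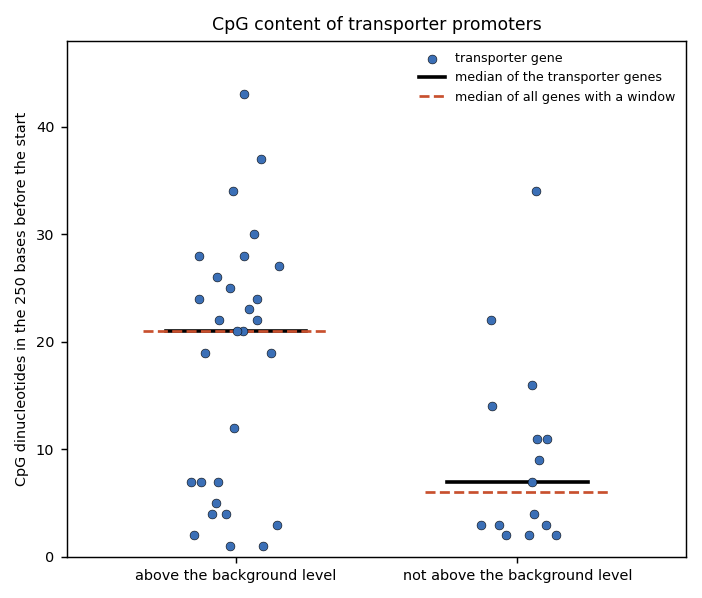
The number of CG dinucleotides in the 250 bases before the gene start (y axis) is plotted for the 29 transporter genes above and the 15 not above the background level (x axis), 1 point for each gene. Black lines are their medians, 21 and 7, and dashed lines the medians of all genes measured with a window in the same class, 21 and 6.

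Among the glucose carriers 10 of 14 genes were above the background level. SLC2A1, the GLUT1 carrier of erythrocytes and most tumour cells, had log2 signals of 14.13 and 14.20 in control cells and 14.24 and 14.38 under C6orf141 overexpression. The 4 arrays of SLC2A1 lay within a narrow range, with both overexpression arrays just above both control arrays. SLC2A3, the GLUT3 carrier of neurons, had 11.81 and 11.40 in control cells and 11.73 and 11.92 under overexpression. SLC2A14 is a close duplicate of SLC2A3, had 13.39, 13.17, 13.27 and 13.41 on the same arrays, and its probes may not tell the 2 genes apart, so both are uncertain. The class II carrier SLC2A9, which transports urate, had 12.14 and 11.82 against 12.12 and 12.24. SLC2A12 of class III, also called GLUT12, had 12.20 and 12.16 in control cells and 11.91 and 12.06 under overexpression, so its overexpression arrays were both lower. The insulin-responsive carrier SLC2A4 lay at the background level. SLC2A2, the fructose carrier SLC2A5, SLC2A7 and SLC2A10 were not above it, with means from 3.01 to 4.43. Thus 4 of 5 class I, 2 of 4 class II and 4 of 5 class III carriers were above the background level. Above the stricter negative control level were 3, 1 and 2 of them. SLC2A6 of class III was counted there by an unmapped row with a mean of 8.63, while its mapped row had 7.30.

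For amino acids, the heavy chain SLC3A2 was detected and its kidney and gut counterpart SLC3A1 was not. SLC3A2 had log2 signals of 16.05 and 16.03 in control cells and 16.08 and 16.30 under overexpression, and SLC3A1 a mean of 5.19. Of the 8 SLC7 light chains, SLC7A5, SLC7A6, SLC7A8 and SLC7A11 were detected, and SLC7A7, SLC7A9, SLC7A10 and SLC7A13 were not. SLC7A5, the LAT1 carrier of leucine and other large neutral amino acids, had 16.52 and 15.97 in control cells and 16.44 and 16.65 under overexpression, with control array 2 lowest. SLC7A11, the cystine and glutamate exchanger xCT, had 14.23 and 13.84 in control cells and 14.00 and 14.08 under overexpression, and its overexpression arrays lay between the control arrays. SLC7A6, which exchanges arginine for glutamine, had 11.44 and 11.44 against 11.52 and 11.61. All 4 light chains that were detected need SLC3A2, but so do SLC7A7 and SLC7A10, which were not detected. SLC7A9 pairs with SLC3A1, and neither of that pair was above the background level. Of the 5 cationic amino acid transporters only SLC7A1, the arginine carrier CAT1, was detected, with 14.27 and 13.75 in control cells and 14.14 and 14.37 under overexpression. SLC7A2, SLC7A3, SLC7A4 and SLC7A14 had means of 5.03 or less.

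The neutral amino acid exchangers of SLC1 were both above the background level. SLC1A5, the glutamine carrier ASCT2, had log2 signals of 13.69 and 13.39 in control cells and 13.62 and 13.66 under overexpression. SLC1A4, the related carrier ASCT1, had 7.64 and 6.78 against 7.35 and 7.25, and its overexpression arrays lay between the control arrays. Of the 5 glutamate carriers, SLC1A3 and SLC1A1 were detected. SLC1A3, best known from astrocytes, had 12.37 and 11.82 in control cells and 12.35 and 12.43 under overexpression, and SLC1A1 had a mean of 8.03. The brain and retina carriers SLC1A2, SLC1A6 and SLC1A7 had means from 4.79 to 5.60 and were not above the background level.

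In the SLC38 family 8 of 12 genes were above the background level. SLC38A1 and SLC38A2 are the system A carriers for alanine, glutamine and other small neutral amino acids. SLC38A1 had log2 signals of 17.17 and 16.55 in control cells and 16.81 and 16.88 under overexpression, and SLC38A2 had 16.47 and 16.53 against 16.28 and 16.45. The liver carrier SLC38A4, the other member of system A, had a mean of 4.88 and was not detected. Of system N, SLC38A5 was detected with a mean of 15.80 and SLC38A3 was not, with 4.45. SLC38A9, which senses arginine at the lysosome for the growth kinase mTORC1, had 11.24 and 11.00 in control cells and 10.93 and 10.70 under overexpression, so both overexpression arrays lay below both control arrays. SLC38A6, SLC38A10 and SLC38A12 had means of 12.44, 9.78 and 8.97. SLC38A8 had 1 row just above the background level, with a mean of 6.26, and another at 4.27.

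Of the SLC16 genes 6 of 9 were above the background level, 3 of them above the negative control level. SLC16A13 had log2 signals of 10.43 and 9.26 in control cells and 10.25 and 10.70 under overexpression. Its control array 2 stood apart, with the other 3 arrays within a much narrower range. SLC16A14 and SLC16A9 had means of 8.24 and 7.94. The pyruvate and lactate carrier SLC16A7 (MCT2), the aromatic amino acid carrier SLC16A10 and SLC16A5 lay between the background and negative control levels, with means of 6.98, 7.36 and 6.63. SLC16A4, SLC16A8 and SLC16A12 were not above the background level. SLC16A8 is the lactate carrier of the retinal pigment epithelium.

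The second question was whether C6orf141 overexpression changed the signal of these carriers. No transporter gene passed the test, neither at an adjusted p below 0.05 from limma (lowest adjusted p = 1.00) nor at an unadjusted one, where SLC2A11 came closest. Over all genes measured, 0 of 33616 passed the adjusted threshold (0%) and 711 the unadjusted one (2.12%). Of the genes above the background level, which is where 34 of the 57 members lie, 0.907% passed it. C6orf141 itself, with a log2 difference of 3.46, did not pass the adjusted threshold in limma (adjusted p = 0.215). That threshold thus missed the overexpressed gene, and its result says little about smaller changes in the carriers. The methods' t-test gave 0 of the 57 genes after adjustment and 1 before it, SLC7A10, which was not above the background level. The log2 differences of the 34 detected genes, overexpression minus control, ranged from −0.31 for SLC38A9 to 0.63 for SLC16A13, or 1.54-fold, with standard errors of about 0.25. For 29 of the 34 the 95% interval of the difference stayed within 2-fold either way. For SLC2A6, SLC2A11, SLC7A8, SLC16A13 and SLC38A8 it did not. In the limma comparison of all 4 arrays, no gene measured with a log2 difference under 0.51 passed the unadjusted threshold.

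For the best known carriers the differences were small against their intervals. SLC2A1 had a log2 difference of 0.15 (standard error 0.22, 95% interval −0.37 to 0.66). SLC3A2 had 0.15 (−0.38 to 0.67) and its partner SLC7A5 had 0.30 (−0.32 to 0.92). For SLC7A11 the difference was 0.01 (−0.55 to 0.57), for SLC1A5 0.10 (−0.44 to 0.63) and for SLC7A1 0.24 (−0.37 to 0.85). The glutamine carriers SLC38A1 and SLC38A2 had −0.02 (−0.65 to 0.61) and −0.13 (−0.65 to 0.39). SLC2A3 had 0.22 (−0.36 to 0.79), SLC1A4 0.09 (−0.63 to 0.81) and SLC1A3 0.30 (−0.31 to 0.90). None of these intervals excluded a difference of 0, and none reached a 2-fold difference.

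**Figure D3:**
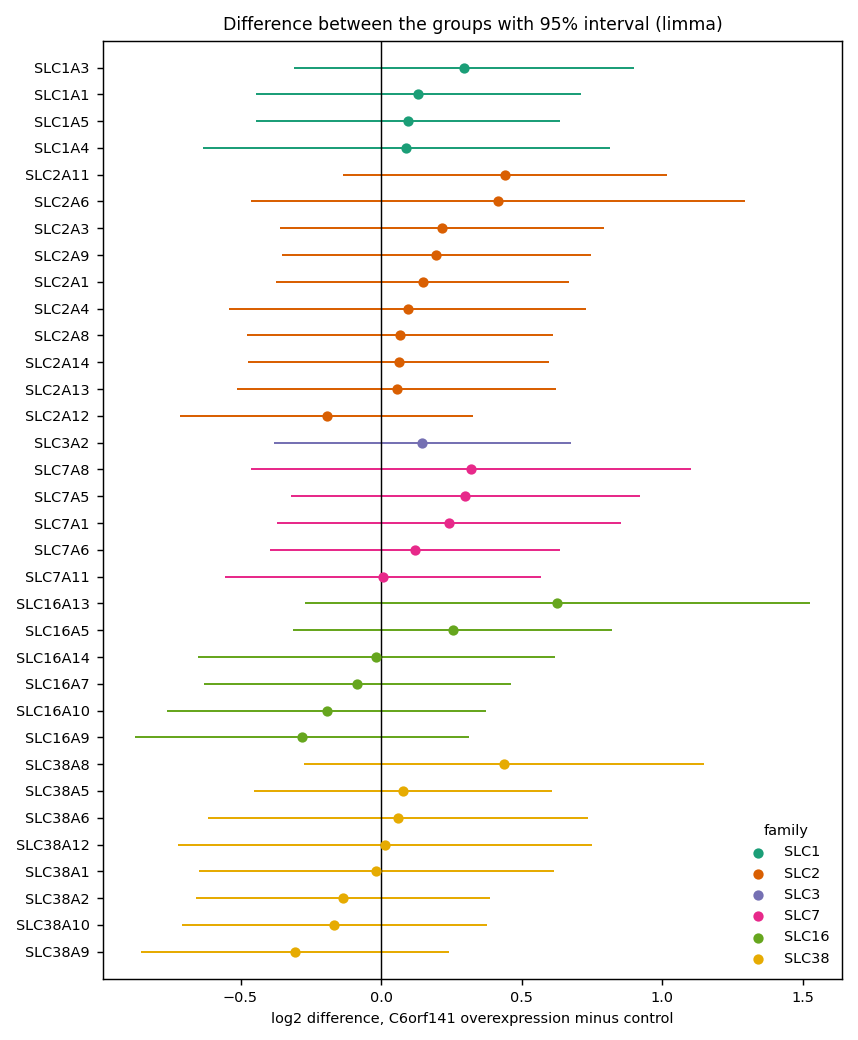
The log2 difference between C6orf141 overexpression and control (x axis, points) is plotted with its 95% interval from limma (lines) for the 34 transporter genes above the background level (y axis), coloured by family. The interval of every gene crosses 0, and SLC16A13 has the largest positive value, 0.63.

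Several genes with the largest differences also had a wide spread within a group. After SLC16A13, the largest positive differences were those of SLC2A11 (0.44), SLC38A8 (0.44), SLC2A6 (0.42) and SLC7A8, the LAT2 carrier of neutral amino acids (0.32). SLC2A6, a class III carrier of spleen and leukocytes, had log2 signals of 9.03 and 7.81 in control cells and 8.83 and 8.84 under overexpression. The array lists this row as unmapped, as it does 5 of the 6 rows of SLC2A6, and the mapped row had 7.31 and 6.97 against 7.45 and 7.48. SLC7A8 had 8.84 and 7.92 in control cells and 8.50 and 8.90 under overexpression. In all 3 of SLC16A13, SLC2A6 and SLC7A8 control array 2 was the lowest array and the groups overlapped. SLC2A11 had 6.83 and 6.38 against 7.04 and 7.06, and its groups did not overlap. The 3 rows of SLC38A9 did not run the same way, with log2 differences of −0.31, 0.15 and −0.36.

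The groups did not overlap for 7 of the 34 detected genes, or 20.6%, against 27.7% of all genes above the background level. Of these 7, SLC2A1, SLC2A11, SLC3A2 and SLC7A6 were higher under overexpression and SLC2A12, SLC38A2 and SLC38A9 lower. Among all genes above the background level, 12.6% were higher and 15% lower in this way. Counted over all 57 transporter genes it was 13, or 22.8%, against 29.4% of all genes measured. By this measure the transporter genes did not separate the groups more often than other genes.

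By family, the detected members of SLC1, SLC7 and SLC3 all had positive differences, 4, 5 and 1 genes, with medians of 0.11, 0.24 and 0.15. In SLC2 it was 9 of 10, all but SLC2A12, with a median of 0.12. SLC38 had 4 positive and 4 negative values with a median of −0.002, and SLC16 2 positive and 4 negative values with a median of −0.05. In all, 25 of 34 differences were positive, 73.5% against 49.2% of all genes above the background level, with medians of 0.09 and −0.004. The balance of signs moved with the control arrays. Without control array 2 the median over the 34 genes was −0.06, and without control array 1 it was 0.27.

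Control array 2 gave lower signals than control array 1 for nearly all of these carriers. It was the lowest of the 4 arrays in 25 of the 34 detected genes (73.5%), against 36.5% of all genes above the background level. Control array 1 was above control array 2 in 31 of the 34 detected genes (91.2%), against 56.9% of all genes above the background level. The exceptions were SLC2A1, SLC2A4 and SLC38A2. The median difference between the control arrays was 0.34 for the transporter genes and 0.07 for all genes above the background level. Overexpression array 2 was above overexpression array 1 in 28 of 34 (82.4%), against 56.8% of all. Here the median difference, array 1 minus array 2, was −0.15 against −0.04. This pattern was noticed in the data. It held after quantile normalization of the arrays, with 29 and 28 of the 34 genes, and after centring each array on its median, with 32 and 28. Its cause was not tested.

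The control arrays differed by over 2-fold in 2 of the 34 genes, SLC2A6 with a log2 difference of 1.22 and SLC16A13 with 1.17, and this was so for 2.73% of all genes above the background level. SLC7A8 differed by 0.92. SLC1A4 followed with 0.86 and SLC38A12 with 0.85. For SLC38A6 it was 0.72, from 12.77 and 12.06 in control cells, while its overexpression arrays had 12.36 and 12.58. SLC38A12 had 9.39 and 8.54 in control cells and 8.84 and 9.12 under overexpression. For both genes the overexpression arrays lay between the control arrays. No detected transporter gene differed by over 2-fold between the overexpression arrays.

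**Figure D4:**
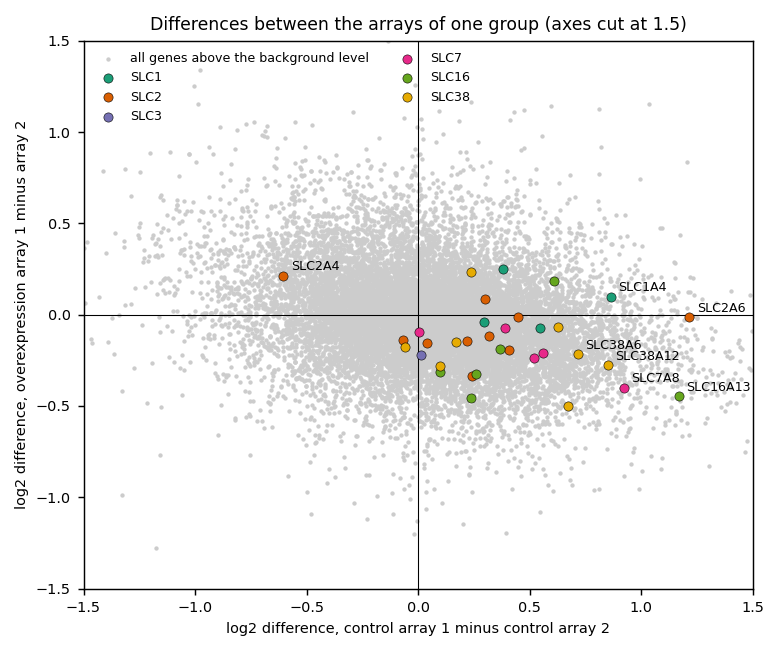
The log2 difference between control arrays 1 and 2 (x axis) is plotted against that between overexpression arrays 1 and 2 (y axis) for the 34 detected transporter genes, coloured by family, and for the 16214 genes above the background level in grey, of which those beyond the axes are not drawn. Of the transporter genes 31 lie right of 0 and 28 below 0, with SLC2A6 and SLC16A13 farthest to the right.

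Without control array 1, which leaves control array 2 alone on the control side, 5 detected transporter genes passed an unadjusted p below 0.05 in limma as higher under overexpression. They were SLC16A13 with a log2 difference of 1.21, SLC2A6 with 1.02, SLC7A8 with 0.78, SLC38A8 with 0.77 and SLC2A11 with 0.67. Of all genes above the background level 3.69% passed in this way. None passed after adjustment, and without control array 2 the same 5 differences lay at 0.04, −0.19, −0.14, 0.10 and 0.22.

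Genes that work with these carriers were examined as lists. Of 133 genes measured on 7 lists, 113 were above the background level. Of these genes 1 passed an unadjusted p below 0.05, and none passed after adjustment. The unadjusted threshold had been passed by 2.12% of all genes measured and by 0.907% of those above the background level. The list gene that passed was SLC25A22, the mitochondrial glutamate carrier, on the list of other amino acid and sugar transporters. It had log2 signals of 9.67 and 8.88 in control cells and 9.96 and 10.07 under overexpression, a log2 difference of 0.74 (95% interval 0.05 to 1.43, adjusted p = 1.00). With 1 array left out the difference ranged from 0.35 to 1.14. SLC6A9, the glycine carrier GLYT1, had 11.41 and 10.86 against 11.62 and 11.61, a difference of 0.48 that did not pass. Of the 18 detected genes on this list, 18 had control array 1 above control array 2, as 31 of the 34 transporter genes had, and over all 7 lists it was 82 of 113 (72.6%).

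All 6 partner proteins of the carriers were above the background level and none passed the test. BSG (basigin), which escorts the lactate carriers SLC16A1 and SLC16A3 to the membrane, had log2 signals of 15.26 and 15.24 in control cells and 15.36 and 15.50 under overexpression. EMB (embigin), the escort of SLC16A7, had 13.82 and 13.70 against 13.44 and 13.51. The groups did not overlap for either gene, in opposite directions, with log2 differences of 0.18 and −0.29. This made 2 of the 6 partner genes, or 33.3%, against 27.7% of all genes above the background level. TXNIP, which lowers the surface level of SLC2A1, had a difference of 0.19, with control array 2 lowest at 12.08.

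The lists for metabolism and sensing showed differences of the same size. None of the 20 genes of glutamine and non-essential amino acid metabolism passed an unadjusted p below 0.05 in limma. Their median log2 difference was 0.09. The smallest p-values were those of ASL with 0.32, the glutamine synthetase gene GLUL with 0.29 and CTH with −0.27. The 25 genes of the ATF4 response, through which cells induce amino acid carriers when amino acids run short, had a median of 0.04, with −0.43 for NUPR1, 0.41 for CEBPB and −0.31 for EIF2AK3. The 31 genes of amino acid sensing by mTORC1 had a median of −0.03, with 0.54 for LAMTOR4, 0.35 for TFEB and 0.32 for NPRL3. The 16 genes of glucose and lactate handling had 0.05, with 0.33 for the hexokinase HK1, 0.35 for the pyruvate kinase gene PKM and 0.20 for PFKL. The 13 genes of glutathione and cystine metabolism had 0.002, with 0.31 for HMOX1 and −0.18 for GCLC. GCLC is a subunit of an enzyme on the path to glutathione from the cysteine that SLC7A11 brings in as cystine. The 29 other amino acid and sugar transporters had a median of 0.04. TFEB, CTH and HMOX1 were not above the background level. The median over all genes measured was −0.001, and none of the genes named here but SLC25A22 passed the unadjusted threshold.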

How the data were processed

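The authors deposited 1 log2 signal per transcript cluster and array, which per the labels came from gene-level analysis in Expression Console. The sources used here do not give the algorithm, the normalization, the annotation release or the software versions. Per the methods, RNA was prepared with WT PLUS reagent, hybridised to Clariom D arrays, and Partek was used with a p threshold of 0.05. The log2 values were used as deposited. Of 138745 rows, 2995 array controls were left out. Of the other 135750 rows, 36176 had exactly 1 symbol in the platform annotation, 1119 had several and 98455 are unnamed here. By gene number 25516 rows matched the RefSeq table of GRCh38.p14, with 0 symbols changed. The array's build is not named, so no coordinates of its rows are given. The groups were compared two-sided by lmFit and eBayes of limma 3.58.1, run in R 4.3.3, over all 135750 rows, with Benjamini-Hochberg adjustment over 33616 genes, 1 row each, at a threshold of 0.05. An exact permutation test of 2 arrays against 2 cannot give a two-sided p below 0.333 and was not used. The steps were tested on simulated data in which every row had the same variance. That run checked the steps and does not measure their power on these arrays.

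The members and lists were chosen with earlier results of these data known. Genes named with values were the best known carriers, the 8 largest differences and the 6 widest spreads within a group among members above the background level, any member with an unadjusted p below 0.05, and up to 3 genes per list. Other members are named to account for each family. Alternatives were quantile normalization, centred arrays, trend and robust settings, Student's test per gene (the methods' t-test, since the Partek model is not named), only genes above the background level, a mean over each gene's rows, a block for the replicate number, and dropping 1 array at a time. Some list genes are not analysed here.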

Additional observations from a re-analysis of the deposited data

How the results depend on the processing

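No transporter gene passed an adjusted p below 0.05 under any of the alternatives run, which included both normalizations, robust settings with a trend, the methods' t-test, the filter on dim genes, the mean of a gene's rows, pairing and leaving out each array. At an unadjusted p below 0.05, the count of higher transporter genes went from 0 to 1 with the methods' t-test (SLC7A10) and to 1 with a crossed replicate block (SLC16A13), the latter chosen after the data were seen, and ranged from 0 to 5 with 1 array left out. Lower ones ranged from 0 to 1, SLC7A9 without control array 1. Deviations from the group means did not go together in same-numbered arrays (r = −0.112 across all genes measured, −0.268 across the 16214 above the background level, which are not independent replicates). These values gave no sign that the numbers pair the arrays, but they cannot exclude it. With the replicate block 301 genes of all measured were higher and 327 lower, against 352 and 359, 0 transporter genes, and 1 gene at an adjusted p below 0.05. Trend and robust settings and the crossed replicate block also gave 1 such gene against 0.

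Over all genes, 663 genes were higher and 714 lower at an unadjusted p by the methods' t-test, and by the filter on dim genes, which tests fewer genes, 69 and 78. With 1 array left out higher genes ranged from 210 to 931 and lower ones from 246 to 677, with 0 at an adjusted p. Of the pathway genes, 2 were higher with trend and robust settings, and 2 higher and 2 lower with the methods' t-test, against 1 and 0. With 1 array left out they ranged from 0 to 7 and from 0 to 3. The cause was not tested. The median log2 difference of the 34 detected transporter genes ranged from −0.06 to 0.27 with 1 array left out, the lowest without control array 2 and the highest without control array 1.

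Another test, other variance settings, the filter and the replicate block left each log2 difference as it was. A sign could not change under them, and they say nothing about its stability. Averaging rows could move only genes with several rows. Neither this averaging nor the 2 normalizations changed the sign of any of the 19 named transporter genes. With 1 array left out, 10 of the 19 kept their sign and 9 changed it. These ranged from −0.34 to 0.52 for SLC1A4, −0.052 to 0.24 for SLC1A5, −0.19 to 1.02 for SLC2A6, −0.33 to 0.29 for SLC38A1, −0.41 to 0.44 for SLC38A12, −0.30 to 0.42 for SLC38A6, −0.019 to 0.50 for SLC7A1, −0.19 to 0.20 for SLC7A11 and −0.14 to 0.78 for SLC7A8. A lone array was then assumed to vary like the other pair. In the limma comparison of all 4 arrays, no gene that differed by under 1.43-fold passed the unadjusted threshold.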

Other observations

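Several transcripts named after these carriers, but outside the member rule, were also measured. SLC16A1-AS1, a transcript antisense to the gene of the lactate carrier SLC16A1, had log2 signals of 11.77 and 11.41 in control cells and 11.67 and 11.49 under C6orf141 overexpression. Its overexpression arrays lay between the control arrays, and the log2 difference was −0.01 (95% interval −0.57 to 0.55). SLC7A11-AS1 had 5.48 and 6.42 against 5.51 and 5.14, around the background level of 5.81, and SLC2A1-DT, a transcript that starts divergently from SLC2A1, had a mean of 4.71 and was not above it.

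The pseudogene SLC2A3P1 had log2 signals of 12.57 and 12.64 in control cells and 12.32 and 12.34 under overexpression, a log2 difference of −0.27 that did not pass an unadjusted p below 0.05 in limma. The rows of its relatives SLC2A3 and SLC2A14 had differences of 0.22 and 0.06, so the 3 rows did not run the same way. Whether probes of these rows share targets was not tested. SLC2A3P2 and SLC2A3P4 had means of 4.86 and 5.57 and were not above the background level. SLC2A4RG, a regulator of SLC2A4 transcription, had 9.93 and 8.38 in control cells and 9.99 and 9.91 under overexpression, so control array 2 was far below the other 3 arrays, as it was for SLC2A6 and SLC16A13. These transcripts were chosen after values of the data were known.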
